A study of Mus musculus with 6 samples.

Results

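From the 19057 named genes on the array, 10 keratin genes were followed across 6 mouse mammary tumours. They were taken by name from the probe annotation: 5 keratins of stratified and basal epithelium (Krt5, Krt14, Krt15, Krt17 and Krt79) and 5 of simple, mainly luminal, epithelium (Krt7, Krt8, Krt18, Krt19 and Krt23). The tumours came from female FVB mice, 12 weeks old, in 2 groups of 3. The PyMT/ETP tumours carried a PyMT transgene and an endotrophin transgene, which the labels also write as PyMT/C5, and the PyMT control tumours carried the PyMT transgene without it. In MMTV-PyMT mice the mouse mammary tumour virus promoter directs a viral oncoprotein, polyomavirus middle T, to the mammary epithelium. Endotrophin is a C-terminal cleavage product of the collagen VI alpha 3 chain, and the labels do not name the promoter of its transgene. They also do not say that each array was a separate mouse, so a p-value here reflects only how far these samples spread, which may be technical.

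Keratins are the intermediate filament proteins of epithelial cells. A filament is built from heterodimers of a type I chain (here Krt14, Krt15, Krt17, Krt18, Krt19 and Krt23) with a type II chain (here Krt5, Krt7, Krt8 and Krt79). In the mammary gland, Krt8 with Krt18 is the usual pair of luminal cells and Krt5 with Krt14 the usual pair of basal and myoepithelial cells. The same basal pair fills the lowest layer of the epidermis, and Krt15, Krt17 and Krt79 are also known from hair follicles. RNA of skin can therefore carry these transcripts into a tumour sample. Whether skin RNA also carries the other keratins, Krt19 among them, was not examined.

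The promoter windows of the partner pairs Krt5 with Krt14 and Krt8 with Krt18 are shown because the values of these partners are set side by side further on. They run 5′ to 3′, from 250 bases before to 50 bases after the RefSeq start (build GRCm38.p6). Capitals mark matches, on either strand, to any of 4 short motifs. The TATA box was searched as TATAAA. For the GC box bound by Sp1 the letters were GGGCGG, and for the AP-1 site they were TGANTCA. The AP-2 site was searched as GCCNNNGGC.
Krt5 (chr15:101712856-101713155, minus strand): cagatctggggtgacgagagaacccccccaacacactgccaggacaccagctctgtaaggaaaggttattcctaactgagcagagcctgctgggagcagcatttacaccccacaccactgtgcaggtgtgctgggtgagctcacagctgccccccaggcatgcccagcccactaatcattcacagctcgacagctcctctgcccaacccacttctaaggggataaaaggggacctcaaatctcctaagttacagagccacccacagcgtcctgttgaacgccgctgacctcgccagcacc
Krt14 (chr11:100205981-100206280, minus strand): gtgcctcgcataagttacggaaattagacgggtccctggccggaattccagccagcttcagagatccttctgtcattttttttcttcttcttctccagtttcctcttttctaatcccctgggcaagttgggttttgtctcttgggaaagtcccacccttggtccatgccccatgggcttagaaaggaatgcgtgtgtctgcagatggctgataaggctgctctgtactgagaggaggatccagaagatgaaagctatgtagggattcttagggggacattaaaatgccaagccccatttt
Krt8 (chr15:102004293-102004592, minus strand): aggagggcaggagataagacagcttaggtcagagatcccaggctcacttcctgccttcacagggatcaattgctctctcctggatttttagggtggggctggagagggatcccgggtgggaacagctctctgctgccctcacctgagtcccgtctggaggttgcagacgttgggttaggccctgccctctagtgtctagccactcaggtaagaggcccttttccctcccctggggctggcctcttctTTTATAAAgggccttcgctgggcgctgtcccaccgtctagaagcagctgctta
Krt18 (chr15:102027966-102028265, plus strand): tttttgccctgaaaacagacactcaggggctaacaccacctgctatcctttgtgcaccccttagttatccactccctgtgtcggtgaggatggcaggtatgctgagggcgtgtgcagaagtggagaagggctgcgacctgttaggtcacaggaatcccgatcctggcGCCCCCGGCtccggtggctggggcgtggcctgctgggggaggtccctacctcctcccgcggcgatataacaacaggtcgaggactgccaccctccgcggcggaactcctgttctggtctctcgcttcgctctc

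Windows were found for 7 of the 10 keratins, the others being Krt15, Krt17 and Krt19. Of all 32851 windows in the RefSeq table, 13.6% held the TATA box, 35.7% the GC box, 7.81% the AP-1 site and 16.6% the AP-2 site. Krt8 had 2 overlapping TATA box matches, 1 on each strand, beginning at positions -3 and -1 from the RefSeq start. Krt18 had 1 AP-2 match. The windows of Krt5, Krt14, Krt23 and Krt79 held none of these letters. Krt7 had 4 GC box and 2 AP-2 matches. Along the chromosomes, Krt8 lies next to Krt18, and Krt15 next to Krt19, among protein-coding genes.

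All 10 keratins were measured above background on all 6 arrays, by 10 of their 11 probes. Col6a3 was not analysed here, so the endotrophin transgene itself was not checked. Values are given as levels in log2 units, that is, log2 of the background-corrected intensity plus 16. A level can be compared between tumours for the same gene but not between genes, because probes differ in response. The eleventh probe, a second Krt8 probe, had deposited intensities of 99.1, 88.7 and 93.5 in PyMT/ETP tumours, against 86.9, 91.8 and 84.6 in PyMT control tumours. It exceeded the background limit of 94.0 on 1 array and was not tested. On each array, 54.6% or 54.7% of all 45281 probes exceeded that limit, and the number of arrays limits the precision.

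The samples were checked against marker genes before the keratins were compared. The mammary luminal markers other than keratins were present in every tumour, with 16 of 17 above the limit on each array (Pgr was above it on none). Of 9 basal and myoepithelial markers, 7 were above it on each array, and Cnn1 and Oxtr on none. PyMT control replicates 2 and 3 stood apart in genes of hair and cornified skin. Of 12 hair follicle markers with a probe, 4, 7 and 3 were above the limit in PyMT/ETP tumours, against 5, 10 and 12 in PyMT control replicates 1, 2 and 3. The mean level of the 7 tested hair markers was between 4.61 and 4.75 log2 units in the PyMT/ETP tumours, close to the background limit of 4.61, against 4.74, 8.01 and 8.42 in the controls. Of 12 skin keratinocyte markers other than keratins, 8, 6 and 6 were above the limit in PyMT/ETP tumours, against 7, 11 and 11 in the controls. The mean level of the 9 tested ones was 5.27 to 5.65 log2 units in PyMT/ETP tumours, against 5.73, 6.91 and 8.02. Results are therefore also given without PyMT control replicates 2 and 3. That leaves a single control array, whose spread is assumed to be that of the other group.

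No keratin differed between PyMT/ETP and PyMT control tumours past the test. With limma and Benjamini-Hochberg adjustment over all 12864 tested genes, 0% of genes passed an adjusted p of 0.05 and the adjusted p was 0.997 for each of the 10 keratins. Over 24893 probes the share was also 0%. At an unadjusted p under 0.05 there were 555 genes in either direction, or 4.31% of those tested. By group means, 9 of the 10 keratins were lower in PyMT/ETP tumours and 1, Krt15, was higher, where 49.2% of all tested genes were lower. The median log2 difference was -0.44 over the 10 keratins, -0.51 over the 5 stratified and -0.27 over the 5 simple ones, against 0.0041 over all genes. Without PyMT control replicates 2 and 3, the stratified median turned to 0.016, with 2 of 5 lower, and the simple median was -0.19, with 5 of 5 lower. In bulk tumour RNA, fewer cells of a type and less RNA per cell cannot be told apart. The groups did not overlap for 3 keratins, Krt5, Krt8 and Krt19, all lower in PyMT/ETP tumours, where 3.65% of all genes were non-overlapping and lower and 4.52% non-overlapping and higher. Krt5 and Krt19 also had an unadjusted p under 0.05, as did 2.04% of all genes in the lower direction. The smallest p of an exact permutation test of 3 tumours against 3 is 0.1.

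**Figure D1:**
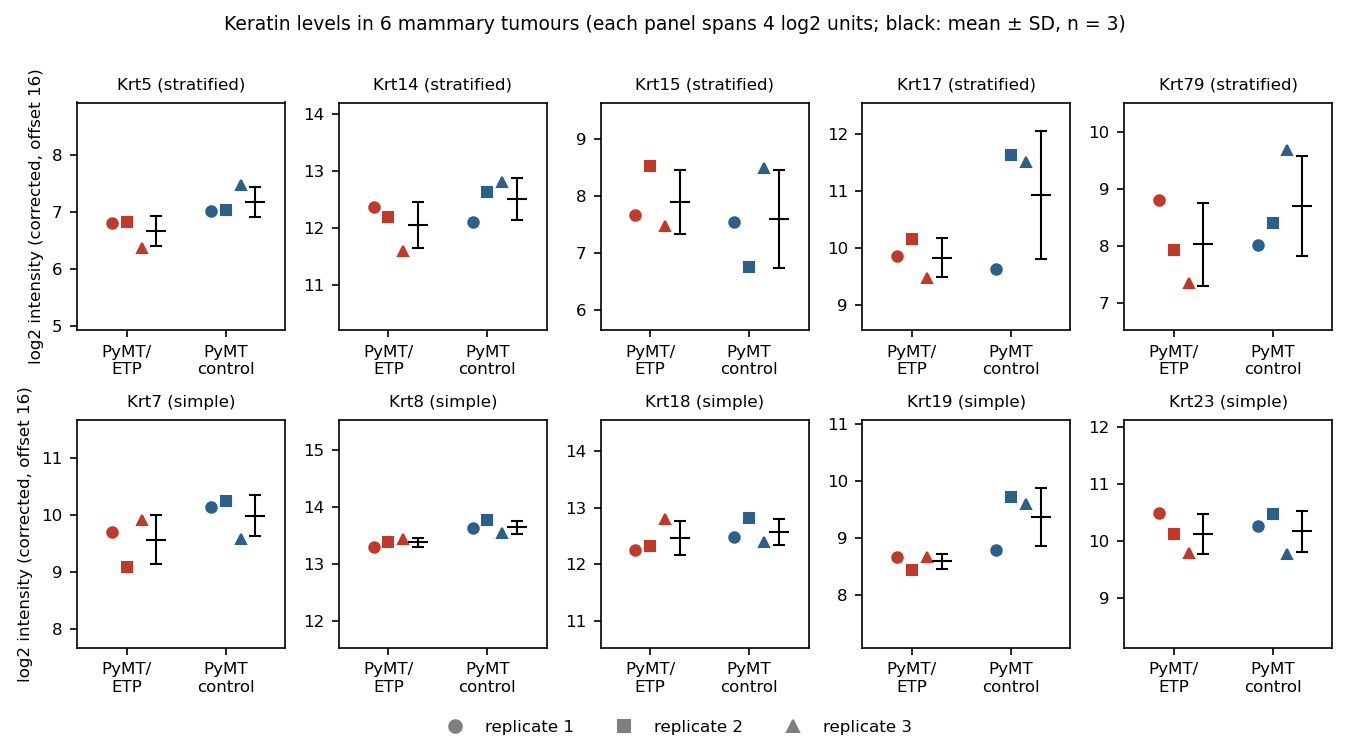
Level of each keratin in log2 units (vertical axis) in the 3 PyMT/ETP tumours (red) and the 3 PyMT control tumours (blue), with replicates as symbols and the mean ± SD in black. The groups are separated for Krt5, Krt8 and Krt19 and overlap for the other 7 keratins.

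Among the stratified keratins, the basal pair had log2 differences of similar size, neither past the test. Krt5, the type II chain of basal cells, was at 6.80, 6.82 and 6.37 log2 units in PyMT/ETP tumours, against 7.02, 7.03 and 7.47 in PyMT control tumours. All PyMT/ETP values lay below all control values (log2 difference -0.51, SE 0.19, 95% confidence interval -0.95 to -0.075). Without background correction the log2 difference was -0.32. Its partner Krt14, the type I chain, was at 12.37, 12.20 and 11.61 in PyMT/ETP tumours, against 12.11, 12.64 and 12.81 in controls. Here PyMT control replicate 1 fell inside the PyMT/ETP range, and the log2 difference was -0.46 (SE 0.25, interval -1.03 to 0.11). For both genes PyMT/ETP replicate 3 was the lowest tumour and PyMT control replicate 3 the highest. Without PyMT/ETP replicate 3 the log2 difference of Krt14 was -0.24, and without PyMT control replicates 2 and 3 it was -0.049. The difference of Krt5 was then -0.36.

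Krt17, a type I keratin of hair follicles, myoepithelial cells and stressed epithelium, had the widest difference and also the widest spread of the 10. It was at 9.86, 10.17 and 9.47 log2 units in PyMT/ETP tumours, against 9.64, 11.65 and 11.52 in controls. PyMT control replicates 2 and 3 were high, while replicate 1 lay among the PyMT/ETP tumours. By group means PyMT/ETP tumours had 46.6% of the control level on this scale, a log2 difference of -1.10 (SE 0.48, interval -2.20 to 0.0011). Its SD was 0.35 in PyMT/ETP tumours and 1.12 in controls (n = 3 each), and 99.1% of tested genes had a smaller pooled SD. Without PyMT control replicate 1 the log2 difference was -1.75 (limma, adjusted p = 0.0518). Without PyMT control replicates 2 and 3 the sign turned, to 0.19. The hair and skin markers were high in the same pair of control tumours; their part in the Krt17 difference was not tested.

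Krt79, a type II keratin of the hair follicle opening and sebaceous duct, was at 8.81, 7.93 and 7.35 log2 units in PyMT/ETP tumours, against 8.01, 8.41 and 9.70 in controls. The groups overlapped, and PyMT control replicate 3 was the highest tumour. The log2 difference was -0.68 (SE 0.47, interval -1.75 to 0.40). It was -1.06 without PyMT/ETP replicate 1. It shrank to -0.18 without PyMT control replicate 3, and leaving out replicates 2 and 3 gave 0.016. Of 7 sebaceous gland markers, all with a probe, 3, 0 and 1 were above the background limit in PyMT/ETP tumours, against 1, 3 and 1 in controls. The mean level of the 2 tested ones was 5.13, 4.47 and 4.63 log2 units in PyMT/ETP tumours, against 4.59, 5.39 and 4.57 in controls, so it was highest in PyMT control replicate 2 and PyMT/ETP replicate 1. Elovl3, Awat1 and Dgat2l6 were above the limit on no array.

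Krt15, a type I basal keratin known from the hair follicle bulge, was the only one higher in PyMT/ETP tumours by group means. It was at 7.67, 8.53 and 7.48 log2 units in PyMT/ETP tumours, against 7.55, 6.76 and 8.49 in controls. The controls spanned a wider range than the PyMT/ETP tumours and covered nearly all of it. The log2 difference of 0.29 (SE 0.43, interval -0.69 to 1.27) was smaller than the SD of either group, 0.56 in PyMT/ETP and 0.87 in control tumours (n = 3 each). It turned to -0.13 without PyMT control replicate 2 and to -0.027 without PyMT/ETP replicate 2. It reached 0.74 without PyMT control replicate 3.

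Among the simple keratins, Krt8 of the luminal pair varied least within the groups. Krt8, the type II chain of luminal cells, was at 13.29, 13.39 and 13.44 log2 units in PyMT/ETP tumours, against 13.62, 13.77 and 13.54 in controls. The groups were separated by a narrow gap, 13.44 in PyMT/ETP replicate 3 against 13.54 in PyMT control replicate 3. The log2 difference was -0.27 (SE 0.14, interval -0.58 to 0.043), or 83.0% of the control level on this scale. Only 8.37% of tested genes had a smaller pooled SD. With any single array left out the log2 difference stayed between -0.32 and -0.21, and without PyMT control replicates 2 and 3 it was -0.25.

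Krt18, the type I partner of Krt8, was at 12.26, 12.33 and 12.80 log2 units in PyMT/ETP tumours, against 12.48, 12.82 and 12.39 in controls. PyMT/ETP replicate 3 stood level with the highest control. The log2 difference of -0.10 (SE 0.19, interval -0.54 to 0.34) was smaller than the SD of either group, 0.30 in PyMT/ETP and 0.23 in control tumours. It was -0.27 with PyMT/ETP replicate 3 left out. Leaving out PyMT/ETP replicate 1 gave 0.0017, and leaving out PyMT control replicate 2 gave 0.029.

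Krt19, a small type I keratin of luminal and progenitor cells, had the largest difference among the simple keratins. It was at 8.66, 8.44 and 8.67 log2 units in PyMT/ETP tumours, against 8.78, 9.71 and 9.60 in controls. PyMT control replicate 1 stood only just above the PyMT/ETP tumours, and replicates 2 and 3 were far above them. The log2 difference was -0.78 (SE 0.24, interval -1.33 to -0.22), or 58.4% of the control level on this scale. Without PyMT control replicates 2 and 3 it was -0.19. The hair and skin markers, high in the same control tumours, were not tested for a part in this difference.

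Krt7, a type II keratin of ductal epithelium, was at 9.69, 9.09 and 9.91 log2 units in PyMT/ETP tumours, against 10.13, 10.25 and 9.58 in controls. The groups overlapped through PyMT control replicate 3, and PyMT/ETP replicate 2 was the lowest tumour. The log2 difference of -0.42 (SE 0.25, interval -1.002 to 0.16) was -0.18 without PyMT/ETP replicate 2. It was -0.63 without PyMT control replicate 3 and -0.57 once replicate 2 was left out too.

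Krt23, a type I keratin, was at 10.48, 10.11 and 9.78 log2 units in PyMT/ETP tumours, against 10.25, 10.47 and 9.76 in controls. Both groups covered almost the same range. The log2 difference of -0.039 (SE 0.24, interval -0.58 to 0.50) changed sign with single arrays left out, between -0.24 and 0.13.

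**Figure D2:**
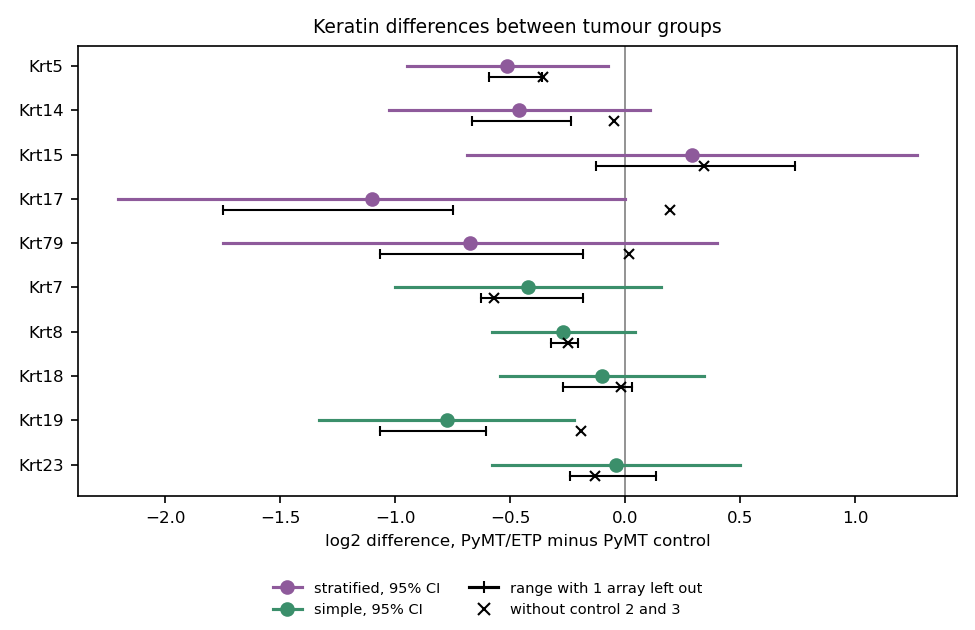
Log2 difference of each keratin, PyMT/ETP minus PyMT control (horizontal axis), with its 95% confidence interval (coloured line), the range with 1 array left out (black line) and the value without PyMT control replicates 2 and 3 (cross). The intervals of Krt5 and Krt19 lie below 0, and for Krt17 the cross lies at 0.19, right of its left-out range of -1.75 to -0.75.

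The keratin classes were then compared within each tumour by deviations, that is, each gene's log2 level minus its mean over the 6 tumours, averaged over the 5 genes of a class. The stratified mean deviation was -0.040, -0.010 and -0.69 in PyMT/ETP tumours, against -0.28, 0.16 and 0.86 in controls. The simple mean deviation was -0.11, -0.31 and -0.062 in PyMT/ETP tumours, against 0.071, 0.42 and -0.010 in controls. The stratified class overlapped between groups, and the simple class, whose range was narrower, was separated only by the small gap between -0.062 in PyMT/ETP replicate 3 and -0.010 in PyMT control replicate 3. Stratified minus simple was 0.066, 0.30 and -0.63 in PyMT/ETP tumours, against -0.35, -0.26 and 0.87 in controls. These values interleaved, with means of -0.085 ± 0.48 in PyMT/ETP and 0.085 ± 0.68 in control tumours (SD, n = 3 each), so the difference of -0.17 was smaller than the spread between tumours. It turned to 0.22 without PyMT control replicate 3, to 0.0996 without PyMT/ETP replicate 3 and to 0.26 without PyMT control replicates 2 and 3. The most unequal tumours were replicates 3 of both groups, in opposite directions.

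**Figure D3:**
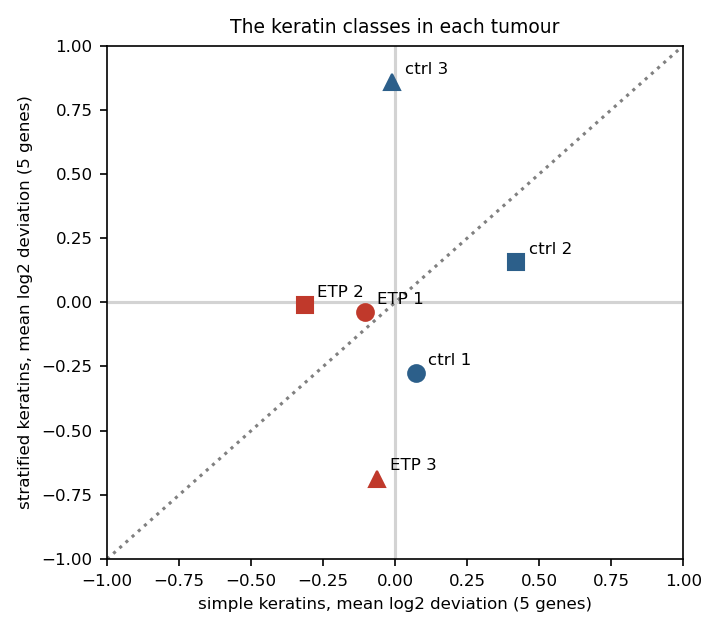
Mean log2 deviation of the 5 simple keratins (horizontal axis) and of the 5 stratified keratins (vertical axis) in each tumour, with PyMT/ETP tumours in red, PyMT control tumours in blue and equality as the dotted line. The stratified class spans -0.69 to 0.86 and the simple class -0.31 to 0.42.

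Single tumours set much of this pattern. PyMT/ETP replicate 3 was the lowest of the 6 tumours for 4 of the 5 stratified keratins, all but Krt15, and for 0 of the simple ones. PyMT control replicate 3 was the highest for 3 stratified keratins, Krt5, Krt14 and Krt79. PyMT control replicate 2 was the highest for 4 of the 5 simple keratins, all but Krt23, and for Krt17, and it was the lowest for Krt15. Of the marker lists, the hair and skin ones had their high values in PyMT control replicates 2 and 3, and the basal and myoepithelial list had its highest mean deviation, 0.34, in PyMT control replicate 3 and its lowest, -0.26, in PyMT/ETP replicate 3.

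**Figure D4:**
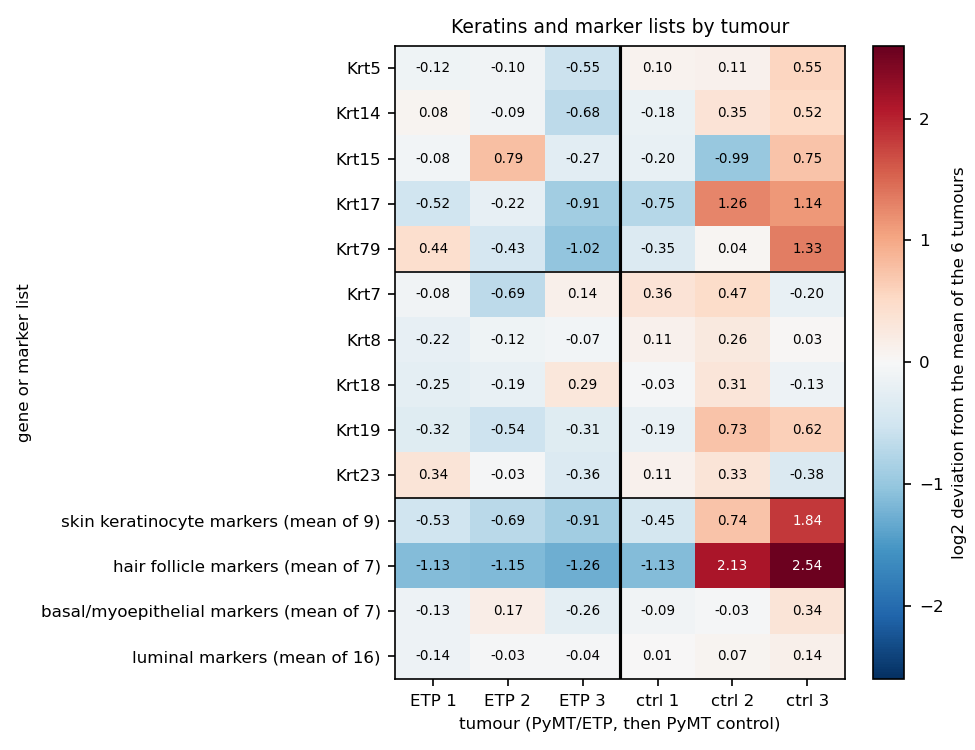
Log2 deviation of each keratin, and mean deviation of 4 marker lists, from the mean of the 6 tumours (colour and printed value) for PyMT/ETP (left) and PyMT control tumours (right). Krt17 and Krt19 are positive in PyMT control replicates 2 and 3 and negative in the other 4 tumours, as the hair follicle list is (2.13 and 2.54 in that pair).

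The basal partners Krt5 and Krt14 were among the most alike pairs by each of 2 measures, and the luminal partners Krt8 and Krt18 by 1 of them. Likeness was measured as the root mean square difference of deviations over the 6 tumours, a description over arrays that share 1 normalization. Of the 45 pairs among the 10 genes, Krt8 with Krt18 had the smallest difference (0.17 log2 units) and Krt5 with Krt14 the next (0.18). This measure favours genes that vary little. With each gene scaled to the same SD, Krt17 with Krt19 came first (0.39 SD units), Krt5 with Krt14 second (0.43), then Krt14 with Krt79 (0.43) and Krt8 with Krt18 13th (0.79). Krt5 minus Krt14 deviated by -0.20, -0.0068 and 0.13 in PyMT/ETP tumours, against 0.28, -0.23 and 0.032 in controls. The largest gap within the luminal pair was in PyMT/ETP replicate 3, where Krt8 minus Krt18 deviated by -0.36, against -0.050 to 0.16 in the other 5 tumours. The least alike pair on the unscaled measure was Krt15 with Krt17, at 1.09.

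**Figure D5:**
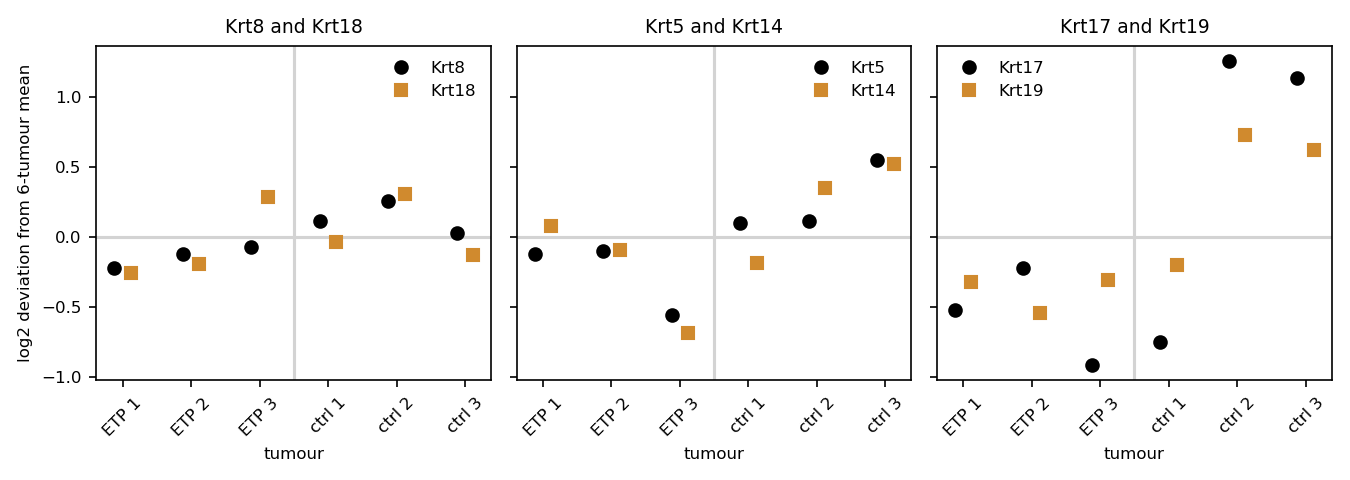
Log2 deviation from the 6-tumour mean (vertical axis) of Krt8 and Krt18, Krt5 and Krt14, and Krt17 and Krt19 in each PyMT/ETP (left) and PyMT control tumour (right). The partners stay within 0.36 of each other for Krt8 with Krt18 and within 0.28 for Krt5 with Krt14, while Krt17 has the sign of Krt19 in all 6 tumours and lies further from 0 in each of them but PyMT/ETP replicate 2.

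Other genes of the keratin network gave no call, and 0% of all genes passed. Of 8 tested genes of desmosomes and cytolinkers, which anchor keratin filaments at cell contacts, 7 were lower in PyMT/ETP tumours by group means and 1 higher (median log2 difference -0.23). The plakophilin Pkp3 was at 8.39, 8.50 and 8.35 log2 units in PyMT/ETP tumours, against 8.56, 8.88 and 8.85 in controls, and the cytolinker periplakin (Ppl) at 8.25, 8.45 and 8.74, against 8.91, 8.81 and 8.77. Both had non-overlapping groups, as 3.65% of all genes did in the lower direction. Perp, among the genes lower by group means, lay near the background limit. It was below it in PyMT/ETP replicates 1 and 2 and in PyMT control replicate 2. The desmosomal cadherins Dsg3, Dsc2 and Dsc3 were above background on no array, and Dsp and Eppk1 had no probe. Of 6 hemidesmosome genes, which anchor Krt5 and Krt14 filaments to the basement membrane, 4 were lower and 2 higher (median -0.17). The integrin chain Itgb4 had a log2 difference of -0.33, also with non-overlapping groups, and the collagen Col17a1 one of -0.46 with overlapping groups.

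Of 15 tested epithelial transcription factors, 10 were lower in PyMT/ETP tumours by group means and 5 higher (median log2 difference -0.070). Ehf, from the same list, was above background on no array. Klf4, a factor of epidermal differentiation, was at 6.09, 6.13 and 6.41 log2 units in PyMT/ETP tumours, against 6.40, 6.58 and 7.67 in controls, with the high value in PyMT control replicate 3. Foxa1 went the other way, at 4.83, 5.12 and 5.19, against 4.87, 4.81 and 4.46, with overlapping groups (log2 difference 0.33). Its values were near the background limit of 4.61, and that of PyMT control replicate 3 was below it. Trp63, the master regulator of basal and stratified epithelium, was at 8.98, 9.07 and 8.62, against 9.02, 8.88 and 9.71. Trp63 thus had its lowest tumour in PyMT/ETP replicate 3 and its highest in PyMT control replicate 3, as Krt5 and Krt14 did. Of the other basal and myoepithelial markers, Snai2 had the same lowest and highest tumours, and Cdh3 the same highest. The contractile genes, named here after their values were seen, did not. Acta2 (12.10), Mylk (9.52) and Myh11 (5.99) were highest in PyMT/ETP replicate 2, and Tagln (5.67) in PyMT/ETP replicate 3. Among all 7 tested basal and myoepithelial markers, 4 were lower and 3 higher (median -0.30). With PyMT/ETP replicate 3 left out that median was -0.0093, and with PyMT control replicate 3 left out it was -0.058.

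The luminal markers outside the keratins went both ways, with 10 lower and 6 higher in PyMT/ETP tumours (median log2 difference -0.10 over 16 tested). The tight junction gene Cldn4 was at 10.73, 11.18 and 11.13 log2 units in PyMT/ETP tumours, against 11.29, 11.79 and 11.60 in controls. Epcam, an epithelial adhesion molecule, was at 5.51, 5.53 and 5.96, against 5.24, 5.25 and 5.29, so the groups of these genes were separated in opposite directions. Over all genes, 3.65% were separated and lower and 4.52% separated and higher. The oestrogen receptor gene Esr1 had a log2 difference of 0.43 with overlapping groups.

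The suprabasal and stress keratins outside the 10 had 6 of 8 tested genes lower by group means (median log2 difference -0.42). Without PyMT control replicates 2 and 3 that median was -0.071. Of 13 such keratins with a probe, 5, 5 and 7 were above the limit in PyMT/ETP tumours, against 8, 7 and 9 in controls. Krt77 was above it on no array. Krt6b, named after its values were seen, was above it only in the controls, so the filter of 3 arrays fixed its direction. Krt10, the type I keratin of suprabasal epidermis, was at 8.51, 8.59 and 8.48 log2 units in PyMT/ETP tumours, against 8.75, 9.02 and 10.69 in controls. Krt16, a stress keratin named here after its values were seen, was at 4.82, 5.77 and 5.23, against 4.46, 7.56 and 9.69. Both were highest in PyMT control replicate 3. By group means 8 of the 9 tested skin markers and all 7 tested hair markers were lower in PyMT/ETP tumours, with medians of -1.19 and -2.54. Without PyMT control replicates 2 and 3 it was 7 of 9 skin markers (median -0.25) and 5 of 7 hair markers (median -0.12). Those arrays were left out because these same markers were high in them, so the smaller medians follow from that choice. Of the markers with a probe, 7 of 12 hair and 9 of 12 skin ones passed the filter of 3 arrays above the limit. PyMT control replicates 2 and 3 had the most of these markers above it. The directions with all arrays thus depend partly on how the genes were selected. Among the skin markers, corneodesmosin (Cdsn) was at 4.89, 4.29 and 4.32 in PyMT/ETP tumours, against 5.11, 8.30 and 8.87 in controls. Among the hair markers, Krt73, an inner root sheath keratin, was at 4.69, 4.99 and 4.51, against 4.96, 9.14 and 10.16. PyMT control replicate 1 was close to the PyMT/ETP tumours for both of these, with only replicates 2 and 3 far above background.

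Marker lists of other tissue components had medians in both directions. By group means, all 6 fibroblast markers (median log2 difference 0.11), all 4 tested macrophage markers (0.22), all 4 endothelial markers (0.14) and all 4 tested skeletal muscle markers (0.33) were higher in PyMT/ETP tumours, none past the test. Without PyMT/ETP replicate 1 the fibroblast median turned to -0.17, with 5 of 6 lower, and the skeletal muscle median to -0.023, with 3 of 4 lower. With 1 array left out the macrophage median stayed between 0.16 and 0.29 and the endothelial median between 0.078 and 0.27. The median was -0.074 over 3 tested adipocyte markers, -0.20 over 3 lymphocyte markers and -0.11 over 2 sebaceous gland markers. None of these 3 kept its sign: without PyMT control replicate 2 they were 0.19, 0.073 and 0.16 in the same order. The adipocyte median was also 0.12 without PyMT/ETP replicate 3 and 0.65 without PyMT control replicates 2 and 3. Fabp4, another adipocyte marker, was above background on no array. The sebaceous median was also 0.031 without PyMT/ETP replicate 2 and 0.15 without PyMT control replicates 2 and 3. The mean level of the fibroblast markers was 8.47 to 9.52 log2 units in PyMT/ETP tumours and 8.67 to 9.004 in controls. That of the skeletal muscle markers was 6.31 to 7.33 in PyMT/ETP tumours and 6.30 to 6.60 in controls. Their part in the keratin differences was not tested.

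Genes outside these lists, leaving out symbols of unnamed transcripts, were ranked by the same unscaled likeness to the class means. The profiles closest to the stratified keratins were those of Cyp2s1, an epithelial cytochrome P450 (root mean square difference 0.12 log2 units over 6 arrays), the lipoxygenase Alox12 (0.12) and Zfp703 (0.13). Cyp2s1, for example, deviated by -0.17, 0.13 and -0.57 in PyMT/ETP tumours, against -0.21, -0.0049 and 0.82 in controls. The profiles closest to the simple keratins were those of Agpat4 (0.061), the kinase Mark3 (0.066) and Ankrd13d (0.071). These were picked as the closest of many genes over only 6 arrays, and no link to the keratins was tested.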

How the data were processed

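Biotin-labelled cRNA was read on Illumina arrays, per the labels' protocols. The deposited table holds linear probe intensity values, and the labels name neither the software nor the normalization. Sorted, the 6 arrays differed by at most 0.185, so the authors' values had been made equal between arrays. Values before normalization (24 columns) were not used, because no label pairs those columns with samples, and detection p-values were not used for the limit.

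The members and gene lists were chosen with earlier results of these data known. Background was estimated from the low values (level 86.1, SD 4.83), removed with limma's normexp model, an offset of 16 was added and log2 taken, which understates the differences of dim genes. Tested probes were above 94.0 (the 5% limit) on at least 3 arrays, and a gene's brightest tested probe represented it. Of 45281 probes, 34885 had 1 gene symbol, 18 several and 10378 none, and 34807 were matched to RefSeq by gene identifier. Probe sequences were not used, so cross-hybridisation between related keratins was not checked.

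PyMT/ETP was compared with PyMT control by limma 3.58.1's moderated two-sided test under R 4.3.3, with Benjamini-Hochberg adjustment, and the fit was tested on simulated data. Named genes were the 10 keratins, up to 3 of smallest unadjusted p from each other list, markers never above background and the 3 genes most like each class. Figures were drawn with matplotlib 3.10.9.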

Additional observations from a re-analysis of the deposited data

How the results depend on the processing

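The comparison was repeated under 16 alternatives. With background, offset, filter, probe, loess, trend, weight and replicate block settings, 0 genes and 0 probes were called in each. With 1 array left out, 0 to 16 genes and 0 to 18 probes were called, the highest counts without PyMT control replicate 1. None of the 16 genes was among the 10 keratins, and all were lower in PyMT/ETP tumours. They included 6 other keratins (Krt27, Krt34, Krt71, Krt73, Krt86 and Krt90), and 8 of the 16 were on the hair or skin marker list. Without PyMT control replicates 2 and 3, 1 gene and 1 probe were called, and the stratified median was 0.016, against -0.51 with all arrays. With 1 array left out the stratified median ran from -0.67 to -0.31 and the simple median from -0.32 to -0.18. Over the 9 settings that kept all arrays the stratified median ran from -0.52 to -0.43 and the simple one from -0.28 to -0.27. These ranges come from the background, offset, loess and weight settings only. Trend and replicate block settings cannot move a difference here. With 1 tested probe per keratin, neither could averaging over probes, and the filter settings left both medians unchanged. No keratin was called under any alternative, and the lowest adjusted p in limma's test was 0.0518, for Krt17. Signs of keratin values turned as follows, and the cause was not tested. Without PyMT control replicates 2 and 3, Krt17 was at 0.19, Krt79 at 0.016 and stratified minus simple at 0.26. With 1 array left out, Krt15 ran from -0.13 to 0.74, Krt18 from -0.27 to 0.029, Krt23 from -0.24 to 0.13 and stratified minus simple from -0.39 to 0.22. With all arrays kept, values moved by over 1.5 times for Krt5 without background correction (-0.32), and with array weights for Krt15 (0.53) and Krt18 (-0.17). The replicate numbers were not treated as pairs. Deviations of same-numbered tumours correlated over genes at -0.065, -0.059 and -0.11, which with 3 arrays a group cannot exclude pairing. In this balanced design a replicate block cannot change a difference. With the block, 0 genes were called and the lowest adjusted p in limma's test was 0.998. With 3 arrays a group, the median gene had a 95% interval reaching 0.39 log2 units to either side.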
